A study of Mus musculus with 18 samples.

Results

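The 35 genes described here are genes used to recognise astrocytes, followed as rows of the deposited count table in libraries that the labels describe as sorted neurons. They were taken by name, as all 35 listed genes were found among the 24015 rows of the table, and they make a module of water and amino acid transporters, gap junction proteins, receptors, metabolic enzymes, secreted proteins, binding proteins and transcription factors. The question put to them was whether they moved in equal ratio between groups, or by stage, with genes that radial glia also express moving apart from genes of mature astrocytes. The study sorted tdTomato-positive cells, about 25000 for each sample, from mouse cortices on postnatal day 5 and sequenced their RNA, with 4 libraries in each of 3 groups. The wild-type (WT) layer 6 group has the genotype wild type and the layer 6 reporter sort. The null layer 6 group has the same sort and the genotype Tbr1 Layer 6 Null in the sample labels, although the design text of the series names a constitutive null. Tbr1 encodes a T-box factor that specifies layer 6 neurons. The WT layer 5 group has the genotype wild type and a layer 5 sort. The reporter is common to all 3 groups, and the sources used here give neither its driver nor the cells in which it is active, nor is it stated whether libraries came from separate animals. The p-values below therefore measure the spread between libraries, which may be technical.

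Astrocytes of the cortex arise from radial glia, the elongated stem cells that line the ventricle and produce neurons first and glia afterwards. Radial glia already carry the fatty acid binding protein Fabp7, the glutamate transporter Slc1a3, the Notch target Hes5 and the gliogenic factor Sox9, and they also express the connexin Gja1. Astrocytes then add the water channel Aqp4, the glutamate transporter Slc1a2, the connexin Gjb6 and the filament protein Gfap as they mature after birth, and they clear glutamate, buffer potassium and make glutamine for neurons. In bulk libraries fewer cells of a type and less RNA per cell cannot be told apart.

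The libraries held between 32982957 and 54899002 counts for WT layer 6, between 41091165 and 47540669 for null layer 6, and between 27465597 and 39703820 for WT layer 5. Levels are given as CPM (counts scaled to a common library total) on TMM-scaled totals over the 12 libraries. Tbr1 stood at 170.3, 172, 183 and 183 CPM in WT layer 6, 92.4, 98.2, 95.1 and 96.1 in null layer 6 and 44.9, 39.7, 42.5 and 40.6 in WT layer 5, in the order of replicates 1 to 4, as are all values listed by library here. The null libraries lay below every WT layer 6 library without reaching the level of layer 5, with a log2 fold change of -0.89 ± 0.0353 (standard error) and an adjusted p of 8.53e-09 by edgeR's quasi-likelihood test with Benjamini-Hochberg adjustment. Whether the remaining Tbr1 counts lie outside the deleted part of the gene was not tested. Summed levels of 14 pan-neuronal genes were 8752 to 9047 CPM in WT layer 6 libraries, 9036 to 9291 in null libraries and 7143 to 7190.3 in layer 5 libraries. Tubb3 alone had a mean of 3335 CPM in WT layer 6, 3203 in null layer 6 and 1740 in layer 5, so the sum follows Tubb3 more than the other genes. Map2 was higher in layer 5 than in WT layer 6 (2092 against 1652 CPM). Of the 14 genes, 6 were higher and 7 lower in layer 5 by the same test. WT layer 6 replicates 1 and 2 stood apart from replicates 3 and 4: Xist was at 0.450 to 0.462 CPM in the former and at 289 to 292 in the latter, whereas null libraries had 264 to 302 and layer 5 libraries 39.0 to 40.6. Of the 35 genes, 22 were higher in both of WT layer 6 replicates 1 and 2 than in replicates 3 and 4, against 26.4% of all genes, and 6 were lower in both, against 27.4%. In null layer 6, 8 of the 35 were higher in replicates 1 and 2 and 18 were lower, against 27.3% and 26.2% of all genes. Layer 6 libraries were all sequenced in batch A, layer 5 replicates 1 and 2 in batch B and replicates 3 and 4 in batch C, so layer and sequencing batch cannot be told apart.

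Astrocyte genes were far higher in the WT layer 5 libraries than in those of WT layer 6, and by very unequal folds. Of the 35 genes, 34 were called higher and 1 lower (edgeR's quasi-likelihood test, Benjamini-Hochberg adjusted p under 0.05), where 42.2% of the 14927 genes tested were called higher and 43.4% lower. Groups did not overlap for the same 34 higher genes and the 1 lower gene, against 38.8% and 42.4% of all genes, and 30 of the 34 differed by more than 2-fold. With libraries summed in pairs (replicates 1 with 2 and 3 with 4 in layer 6, 1 with 3 and 2 with 4 in layer 5), 34 were called higher and 0 lower, where 38.2% and 41.3% of all genes were called. Leaving out WT layer 6 replicates 1 and 2 gave 34 and 1 again. The summed level of the 35 genes was 3203 ± 108 CPM (SD, n = 4) in WT layer 6 and 17067 ± 83.4 in WT layer 5, 5.33 times as much. The median log2 fold change was 2.73, against -0.01 over all genes tested, and single genes ran from -0.14 for the connexin Gjb6 to 7.37 for the orphan receptor Gpr37l1.

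Within layer 6 the same genes differed between genotypes by small amounts and in both directions. Of the 35, 13 were called higher in null layer 6 and 3 lower, where 7.31% of the 14588 genes tested were called higher and 6.86% lower. Groups did not overlap for 13 higher and 3 lower genes, against 10.1% and 9.67% of all genes. Of these 16, Ntsr2 was not called, and of the 16 genes called, Slc6a11 had groups that overlapped. The summed level was 3633 ± 4.92 CPM (SD, n = 4) in null layer 6, 1.13 times that of WT layer 6, and none of the 35 differed by more than 2-fold. The median log2 fold change was 0.19 (0.12 without null layer 6 replicate 4), against 0.00034 over all genes, with single genes between -0.63 for Gjb6 and 0.66 for the mitochondrial glutamate carrier Slc25a18. Both comparisons use the same WT layer 6 libraries, so their values are given side by side and were not set against each other. When the libraries of a pair were summed before the test, 3 genes (Acsbg1, Slc4a4 and Cbs) were called higher in null layer 6 by edgeR and 0 lower, where 1.71% and 1.57% of all genes were called. With an unadjusted p under 0.05 those numbers were 13 and 3. Without WT layer 6 replicates 1 and 2 the counts were 13 higher and 2 lower.

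**Figure D1:**
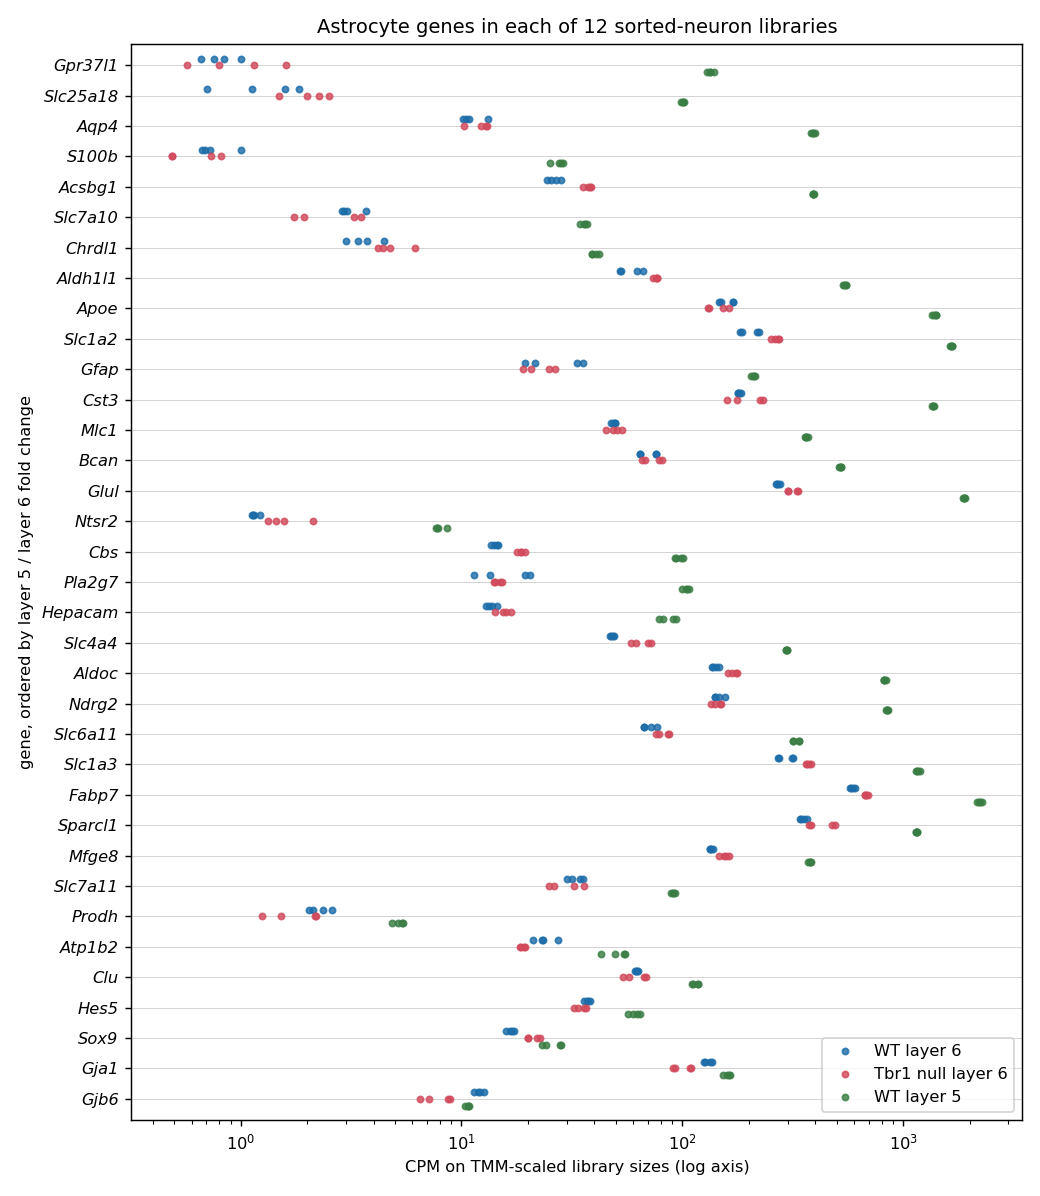
Level of each of the 35 astrocyte genes in each of the 12 libraries, in CPM on a log axis, with 1 point per library coloured by group. Genes are ordered by their fold change in WT layer 5 against WT layer 6. The WT layer 5 points lie above those of both layer 6 groups for most genes, by the most for Gpr37l1 and Slc25a18, and come close to them for Gja1, Gjb6, Sox9 and Hes5.

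Promoter windows are shown for Fabp7, Hes5 and Slc1a3, which radial glia share, and for the genes with the lowest and the highest fold change in layer 5, Gjb6 and Gpr37l1. Each holds the 250 bases before the gene start, read 5′ to 3′ along the gene's strand, from RefSeq on GRCm38.p6, at chr10:57784673-57784922 (plus strand), chr4:154960673-154960922 (plus), chr15:8710808-8711057 (minus), chr14:57133612-57133861 (minus) and chr1:135167682-135167931 (minus). Capitals mark matches, on either strand, to TGGGAA for RBPJ, the DNA-binding partner of Notch, ACAAT for SOX factors, TTCNNNGAA for STAT factors, TCACACCT for T-box factors, and the palindrome of NFI factors.
Fabp7: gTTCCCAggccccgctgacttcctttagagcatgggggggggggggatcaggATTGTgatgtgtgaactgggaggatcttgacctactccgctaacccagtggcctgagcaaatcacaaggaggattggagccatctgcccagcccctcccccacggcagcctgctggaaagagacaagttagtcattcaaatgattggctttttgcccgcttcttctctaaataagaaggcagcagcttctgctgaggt
Hes5: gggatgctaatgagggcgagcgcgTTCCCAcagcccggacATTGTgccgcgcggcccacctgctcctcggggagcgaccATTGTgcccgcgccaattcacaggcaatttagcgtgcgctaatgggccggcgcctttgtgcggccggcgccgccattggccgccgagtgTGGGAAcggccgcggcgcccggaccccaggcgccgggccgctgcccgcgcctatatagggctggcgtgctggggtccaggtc
Slc1a3: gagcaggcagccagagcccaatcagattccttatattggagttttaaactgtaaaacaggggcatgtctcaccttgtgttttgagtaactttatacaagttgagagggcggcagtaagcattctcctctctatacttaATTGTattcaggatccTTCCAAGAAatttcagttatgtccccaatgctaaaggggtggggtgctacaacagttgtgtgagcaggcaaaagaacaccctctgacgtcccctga
Gjb6: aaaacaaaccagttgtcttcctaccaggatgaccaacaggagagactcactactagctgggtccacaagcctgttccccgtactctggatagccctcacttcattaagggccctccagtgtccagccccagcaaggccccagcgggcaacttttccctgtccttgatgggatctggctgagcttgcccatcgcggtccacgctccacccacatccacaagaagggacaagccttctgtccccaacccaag
Gpr37l1: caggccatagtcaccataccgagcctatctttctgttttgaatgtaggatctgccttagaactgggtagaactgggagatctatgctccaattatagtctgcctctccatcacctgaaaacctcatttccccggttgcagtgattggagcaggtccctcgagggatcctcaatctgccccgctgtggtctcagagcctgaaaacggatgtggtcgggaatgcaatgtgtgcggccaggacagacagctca
Fabp7 held 1 RBPJ and 1 SOX match, Hes5 held 2 of each, and Slc1a3 held 1 SOX and 1 STAT match, with no overlap between motifs. The windows of Gjb6 and Gpr37l1 held 0 matches to any of the 5 motifs. Windows of the 35 genes on 1 chromosome were left out, a limit not put on the windows of all genes. Counted in this way, 29 of the 35 genes had 35 windows. RBPJ letters were in 40% of these windows and in 21.6% of all 32851 windows, STAT letters in 20% and 7.02%, and SOX letters in 17.1% and 27.7%. NFI letters were in 0 of the 35 and T-box letters in 0, where 0.0365% and 1.12% of all windows held them. A match is a run of letters, described without a test, and not a binding site.

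Transporters and pumps were all higher in layer 5, 9 of 9, where 42.2% of all genes were called higher. Aqp4, the water channel of astrocyte endfeet, had 13.2, 10.5, 10.8 and 10.1 CPM in WT layer 6, 12.3, 10.2, 12.9 and 13.0 in null layer 6 and 384, 391, 398 and 392 in WT layer 5. Layer 6 libraries of both genotypes overlapped, and layer 5 lay 35.7-fold above WT layer 6 (log2 5.16 ± 0.0594, adjusted p = 1.55e-17 by edgeR with Benjamini-Hochberg adjustment). Slc25a18, which carries glutamate into mitochondria, had 1.59, 1.83, 0.705 and 1.13 CPM in WT layer 6, 1.99, 1.49, 2.501 and 2.27 in null layer 6 and 102, 101, 98.3 and 101 in WT layer 5. It was 79.9-fold higher in layer 5, and its null level overlapped that of WT layer 6, where replicates 3 and 4 were lowest. Its log2 fold change in null layer 6 was 0.66 ± 0.271 and the gene was not called (edgeR, Benjamini-Hochberg adjusted p = 0.134), but without WT layer 6 replicates 1 and 2 the value was 1.15 and was called. The layer 6 levels of Slc25a18 rest on 32 to 102 counts per library, and WT layer 6 replicates 3 and 4 had 32 and 62. The glutamate transporter Slc1a3 had 316, 314, 274 and 273 CPM in WT layer 6, 384, 363, 375 and 369 in null layer 6 and 1146, 1173, 1151 and 1187 in WT layer 5. Every null library lay above every WT layer 6 library, and every layer 5 library above both, with log2 fold changes of 0.34 ± 0.0509 in null and 2.01 ± 0.0453 in layer 5. Its later partner Slc1a2, the main glutamate transporter of mature astrocytes, stood at 202 ± 20.9 CPM (SD, n = 4) in WT layer 6, 265 ± 9.92 in null layer 6 and 1652 ± 21.97 in WT layer 5, with log2 fold changes of 0.39 ± 0.0615 and 3.06 ± 0.0558.

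The sodium bicarbonate cotransporter Slc4a4 had 47.2, 48.5, 49.3 and 47.6 CPM in WT layer 6, 72.1, 69.7, 58.4 and 61.9 in null layer 6 and 295, 296, 299.6 and 298 in WT layer 5. It rose in null layer 6 in every library against every WT library (log2 0.45 ± 0.0591, edgeR with Benjamini-Hochberg adjusted p = 0.000197) and kept its call with pairs summed (adjusted p = 0.0389). Atp1b2, the glial beta subunit of the sodium pump, had 23.4, 27.4, 23.1 and 21.1 CPM in WT layer 6, 19.1, 18.4, 19.5 and 18.5 in null layer 6 and 55.1, 49.3, 54.3 and 43.0 in WT layer 5. It was the 1 transporter or pump that fell in null layer 6 (log2 -0.33 ± 0.0722, edgeR with Benjamini-Hochberg adjusted p = 0.00852), a call lost with pairs summed (adjusted p = 0.120) and without WT layer 6 replicates 1 and 2. The GABA transporter Slc6a11 was called higher in null layer 6, at 81.8 ± 5.48 against 70.8 ± 4.62 CPM, although its groups overlapped. That call was lost in 4 of the 8 fits that left out 1 library, those without null replicate 1 or 2 or WT replicate 3 or 4. The serine transporter Slc7a10 and the cystine transporter Slc7a11 were not called, with log2 fold changes of -0.26 and -0.14. In layer 5 these last 3 were higher by 2.24, 3.54 and 1.49 on the log2 scale.

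Junction proteins and their membrane partners behaved unlike one another. Gja1 (connexin 43), the main gap junction protein of astrocytes, had 134, 137, 127 and 126 CPM in WT layer 6, 91.1, 92.5, 108 and 109.6 in null layer 6 and 163, 159.9, 164 and 153 in WT layer 5. Gjb6 (connexin 30), its partner of more mature astrocytes, had 11.4, 12.7, 11.9 and 12.2 CPM in WT layer 6, 6.47, 7.12, 8.73 and 8.84 in null layer 6 and 10.9, 10.7, 10.4 and 10.7 in WT layer 5. Both connexins lay lower in every null library than in every WT layer 6 library, with log2 fold changes of -0.38 ± 0.0604 and -0.63 ± 0.101 (edgeR with Benjamini-Hochberg adjusted p = 0.000766 and 0.000893), and neither was called with pairs summed (adjusted p = 0.0751 and 0.0673). In layer 5, Gja1 was 1.249-fold higher and Gjb6 fell by 0.14 on the log2 scale (interval of 95%: -0.28 to -0.01, edgeR with Benjamini-Hochberg adjusted p = 0.0439). That 1 lower call was lost with pairs summed and in 7 of the 8 fits that left out 1 library, all but the fit without WT layer 6 replicate 1. Mlc1, a membrane protein of astrocyte endfeet, and Hepacam, the adhesion protein that binds it, were higher in layer 5 by 2.93 and 2.69 on the log2 scale. In null layer 6 their log2 fold changes were 0.02 and 0.19, and neither was called. Within 1 library, the log2 ratio of Gjb6 to Gja1 counts was -3.56 to -3.37 in WT layer 6 libraries, -3.82 to -3.63 in null libraries and -3.99 to -3.85 in layer 5 libraries. That ratio varied by less than 1 log2 unit over the 12 libraries. The log2 ratio of Aqp4 to Gja1 counts was -3.70 to -3.35, -3.18 to -2.89 and 1.24 to 1.36 in the same order, and the sign turned between layers.

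Both receptors were higher in layer 5 and not called in null layer 6. Gpr37l1, a G protein-coupled receptor of mature glia, had 0.755, 0.840, 0.660 and 1.002 CPM in WT layer 6, 0.573, 0.798, 1.15 and 1.60 in null layer 6 and 133, 139, 129 and 133 in WT layer 5. These layer 6 levels rest on 27 to 67 counts per library, and layer 5 was 166-fold higher (log2 7.37 ± 0.0686). Ntsr2, a neurotensin receptor of astrocytes, had 1.15, 1.14, 1.12 and 1.22 CPM in WT layer 6, 1.44, 1.33, 2.13 and 1.58 in null layer 6 and 7.82, 8.63, 7.71 and 7.66 in WT layer 5. Every null library lay above every WT layer 6 library for Ntsr2, with a log2 fold change of 0.48 ± 0.197 that did not pass (edgeR with Benjamini-Hochberg adjusted p = 0.138), and in layer 5 it was 6.97-fold higher.

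Of 7 enzymes and metabolic proteins, 5 rose in null layer 6 while Prodh and Ndrg2 were not called, and 7 of 7 were higher in layer 5. Of all genes, 7.31% and 42.2% were called higher in these comparisons. With pairs summed, 2 of the 5 (Acsbg1 and Cbs) kept their call in null layer 6. Acsbg1, which activates fatty acids, had 28.2, 26.7, 24.3 and 25.4 CPM in WT layer 6, 37.3, 38.4, 35.7 and 38.4 in null layer 6 and 393, 393, 395 and 389.9 in WT layer 5. The 3 groups did not overlap, and the log2 fold changes were 0.52 ± 0.0535 in null layer 6 (edgeR with Benjamini-Hochberg adjusted p = 2.55e-05; 0.0159 with pairs summed) and 3.94 ± 0.0388 in layer 5. Cbs, the enzyme that opens transsulfuration, stood at 14.2 ± 0.470, 18.7 ± 0.635 and 96.2 ± 3.81 CPM (SD, n = 4) in WT layer 6, null layer 6 and WT layer 5, and its rise in null layer 6 also held with pairs summed (edgeR, Benjamini-Hochberg adjusted p = 0.0475). Glutamine synthetase (Glul), the glycolytic enzyme Aldoc and the folate enzyme Aldh1l1 rose in null layer 6 by 0.22, 0.28 and 0.38 on the log2 scale. Proline dehydrogenase (Prodh) had 2.35, 2.58, 2.14 and 2.04 CPM in WT layer 6, 2.19, 1.53, 1.251 and 2.17 in null layer 6 and 5.16, 5.43, 4.83 and 5.38 in WT layer 5. Its null and WT layer 6 libraries overlapped and it was not called (log2 -0.34 ± 0.196), nor was Ndrg2, a cytoplasmic protein abundant in astrocytes (log2 -0.03). In layer 5, Aldh1l1, Glul, Cbs, Aldoc, Ndrg2 and Prodh were higher by 3.25, 2.83, 2.79, 2.58, 2.57 and 1.23 on the log2 scale.

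Secreted and matrix proteins were higher in layer 5 in 8 of 8 cases, against 42.2% of all genes, and 2 of 8 rose in null layer 6, against 7.31%. Those 2 were the synaptogenic matrix protein Sparcl1 (log2 0.29 ± 0.0761) and Mfge8, a bridging protein of phagocytosis (log2 0.20 ± 0.0353). Sparcl1 lost its call in 4 of the 8 fits that left out 1 library, those without null replicate 1 or 2 or WT replicate 1 or 2, and without both of these WT replicates. Its null values were uneven between pairs, at 493, 475, 376 and 383 CPM against 345, 342, 357 and 366 in WT layer 6. Chrdl1, a BMP antagonist that astrocytes secrete, had 4.47, 3.72, 2.99 and 3.41 CPM in WT layer 6, 4.73, 4.41, 4.19 and 6.14 in null layer 6 and 38.9, 39.2, 42.0 and 40.6 in WT layer 5. Null and WT layer 6 overlapped for Chrdl1, which was not called (log2 0.42 ± 0.154), and layer 5 was 11.2-fold higher. The chaperone Clu had 62.1, 62.7, 61.9 and 61.4 CPM in WT layer 6, 67.4, 68.3, 53.8 and 57.6 in null layer 6 and 117, 118, 111 and 112 in WT layer 5. Clu was the secreted protein with the smallest difference between layers, 1.89-fold, and null libraries lay on both sides of WT layer 6. Apolipoprotein E (Apoe), the protease inhibitor Cst3, the proteoglycan Bcan, the phospholipase Pla2g7, Sparcl1 and Mfge8 were higher in layer 5 by 3.15, 2.95, 2.92, 2.73, 1.74 and 1.51 on the log2 scale. Apoe, Cst3, Bcan and Pla2g7 were not called in null layer 6, with log2 fold changes of -0.14, 0.14, 0.07 and -0.14.

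Among the filament and binding proteins, Fabp7 had 606, 590.3, 578 and 577 CPM in WT layer 6, 669, 682, 675 and 692 in null layer 6 and 2276, 2234, 2203 and 2167 in WT layer 5. It rose in null layer 6 by a small and even amount (log2 0.21 ± 0.0275, edgeR with Benjamini-Hochberg adjusted p = 0.000192; 0.0677 with pairs summed) and was 3.85-fold higher in layer 5. S100b, a calcium-binding protein of maturing astrocytes, had 0.671, 0.690, 0.727 and 1.002 CPM in WT layer 6, 0.488, 0.488, 0.736 and 0.812 in null layer 6 and 27.6, 29.0, 25.1 and 28.2 in WT layer 5. Layer 6 values rest on 22 to 55 counts per library and overlapped between genotypes (log2 -0.31 ± 0.269, not called), whereas layer 5 was 35.5-fold higher. The intermediate filament Gfap stood at 35.7, 33.5, 21.4 and 19.4 CPM in WT layer 6, 20.7, 19.1, 26.5 and 24.9 in null layer 6 and 213, 212, 209.8 and 205 in WT layer 5. Gfap was not called in null layer 6 (log2 -0.27) and its value turned to 0.16 without WT layer 6 replicates 1 and 2, while in layer 5 it was 7.85-fold higher.

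Both transcription factors were among the least different genes between layers. Sox9, which specifies glia, had 15.99, 16.6, 17.3 and 16.9 CPM in WT layer 6, 22.6, 19.9, 22.1 and 19.96 in null layer 6 and 27.9, 24.1, 28.3 and 23.2 in WT layer 5. It was higher in every null library than in any WT layer 6 library (log2 0.34 ± 0.0587, edgeR with Benjamini-Hochberg adjusted p = 0.00153; 0.0551 with pairs summed) and 1.59-fold higher in layer 5. Hes5, an effector of Notch signalling, had 37.1, 37.6, 35.9 and 38.1 CPM in WT layer 6, 33.5, 32.2, 36.5 and 35.7 in null layer 6 and 62.4, 60.1, 64.3 and 56.9 in WT layer 5. Null and WT layer 6 overlapped for Hes5 (log2 -0.11 ± 0.0488, not called), and layer 5 was 1.67-fold higher.

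**Figure D2:**
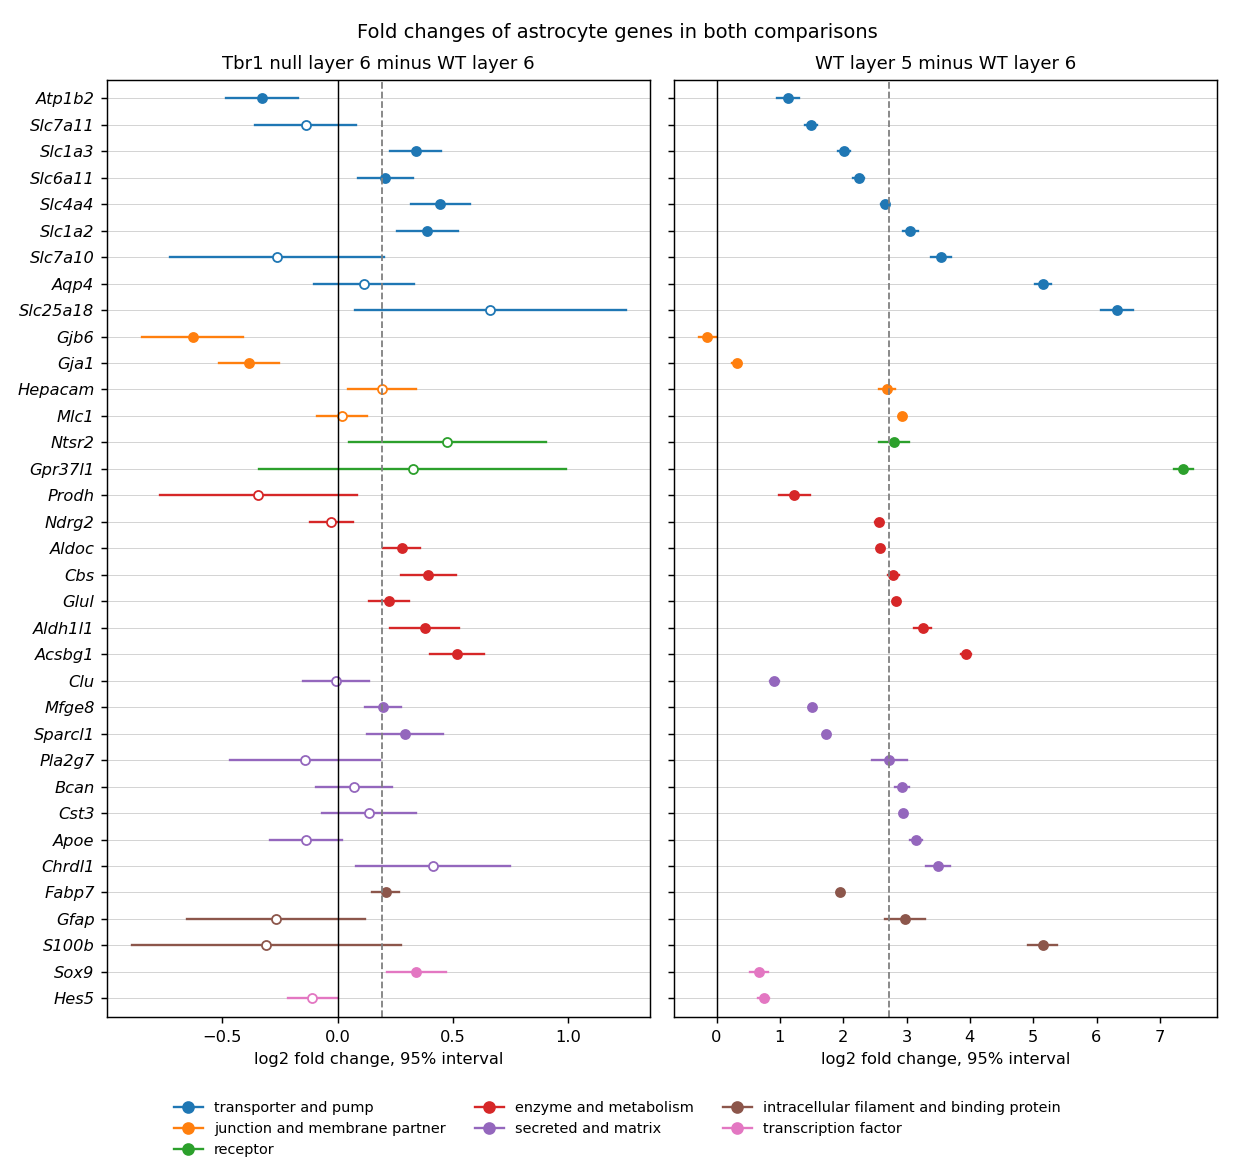
Log2 fold change of each of the 35 genes in null against WT layer 6 (left) and in WT layer 5 against WT layer 6 (right), with 95% intervals, genes ordered and coloured by role, and the median of the 35 as a dashed line. Filled points passed an adjusted p under 0.05; the layer 5 values spread from -0.14 to 7.37, and those of null layer 6 from -0.63 to 0.66.

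Equal movement was examined through the 95% interval of each gene's log2 fold change. In layer 5 against WT layer 6, the interval held the median of the 35 for 5 genes, lay above it for 14 and below it for 16, and the log2 fold changes had an SD of 1.58. With pairs summed, 6 of the 35 intervals held the median, so the folds differed between genes by more than the spread between libraries. Layer 5 libraries of batch B alone gave a median of 2.72 and an SD of 1.58, and those of batch C alone 2.73 and 1.59. These fits share the WT layer 6 libraries, and the layer 5 pairs (1 with 3, 2 with 4) cross the batches with counts that agreed closely, so they are not independent. In null against WT layer 6, the interval held the median for 15 genes, lay above it for 8 and below it for 12, with an SD of 0.31. Pairs summed gave wider intervals there, 23 of which held the median, with 3 above and 9 below. Within 1 library, where totals cancel, the log2 ratio of Slc1a2 to Slc1a3 counts was -0.58 to -0.50 in WT layer 6 libraries, -0.54 to -0.44 in null libraries and 0.45 to 0.54 in layer 5 libraries. The log2 ratio of Fabp7 to Aldh1l1 counts was 3.19 to 3.47, 3.14 to 3.18 and 1.97 to 2.08 in the same order. Both pairs turned toward the mature gene in layer 5. The null libraries overlapped WT layer 6 for Slc1a2 with Slc1a3. For Fabp7 with Aldh1l1 every null library lay below every WT layer 6 library, narrowly (3.18 at the highest against 3.19 at the lowest).

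By stage, 4 of the 35 (Fabp7, Hes5, Slc1a3 and Sox9) were grouped as shared with radial glia and 13 as mature astrocyte genes (Aqp4, Gfap, Gja1, Gjb6, Slc1a2, Slc6a11, Slc7a10, Aldh1l1, S100b, Ntsr2, Mlc1, Hepacam and Gpr37l1). Of all genes, 42.2% were called higher and 43.4% lower in layer 5, and 7.31% and 6.86% in null layer 6. In layer 5 the shared genes had a median log2 fold change of 1.34, with 4 of 4 higher, and the mature genes one of 2.97, with 12 of 13 higher and Gjb6 lower. The mature group was not uniform, as Gja1 and Gjb6 lay below each of the 4 shared genes and Gpr37l1 lay above every other gene of the 35. Gja1, which radial glia also express, could be placed in either group. Counted as shared, a choice made after seeing the data, it gave medians of 0.74 for the shared and 3.02 for the mature genes in layer 5, and 0.21 and 0.15 in null layer 6. In null layer 6 the shared genes had a median of 0.27, with 3 of 4 higher, and the mature genes 0.11, with 3 of 13 higher (Slc1a2, Slc6a11 and Aldh1l1) and 2 lower (Gja1 and Gjb6). Without 1 library the mature median in null layer 6 was 0.033 (without null replicate 4) to 0.21 (without WT layer 6 replicate 1), and the shared median 0.25 to 0.28. The remaining 18 genes had medians of 2.69 in layer 5 and 0.17 in null layer 6. The summed level of the shared genes was 936 ± 36.7 CPM (SD, n = 4) in WT layer 6, 1108 ± 8.14 in null layer 6 and 3471 ± 36.6 in WT layer 5, and that of the mature genes 582 ± 47.9, 637 ± 23.6 and 3952 ± 31.8. Fabp7 and Slc1a3 made 93.9% to 97.7% of the shared sum in the 12 libraries, so that sum follows these genes more than Hes5 or Sox9. The log2 ratio of shared to mature sums was 0.64, 0.63, 0.74 and 0.75 in WT layer 6, 0.84, 0.84, 0.75 and 0.77 in null layer 6 and -0.18, -0.18, -0.21 and -0.19 in WT layer 5. Layer 5 lay below all layer 6 libraries, whereas each null library lay above every WT layer 6 library (0.754 at the lowest against 0.753 at the highest) by a margin smaller than the gap between the pairs of WT layer 6. With Gja1 counted as shared, null libraries had ratios of 1.15 to 1.19 and overlapped those of WT layer 6, at 1.17 to 1.33, while layer 5 libraries had -0.080 to -0.052. A mean of log2 levels over genes in place of sums gave 2.90, 3.08 and 1.05 for the 3 groups, the same order without the change of sign.

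**Figure D3:**
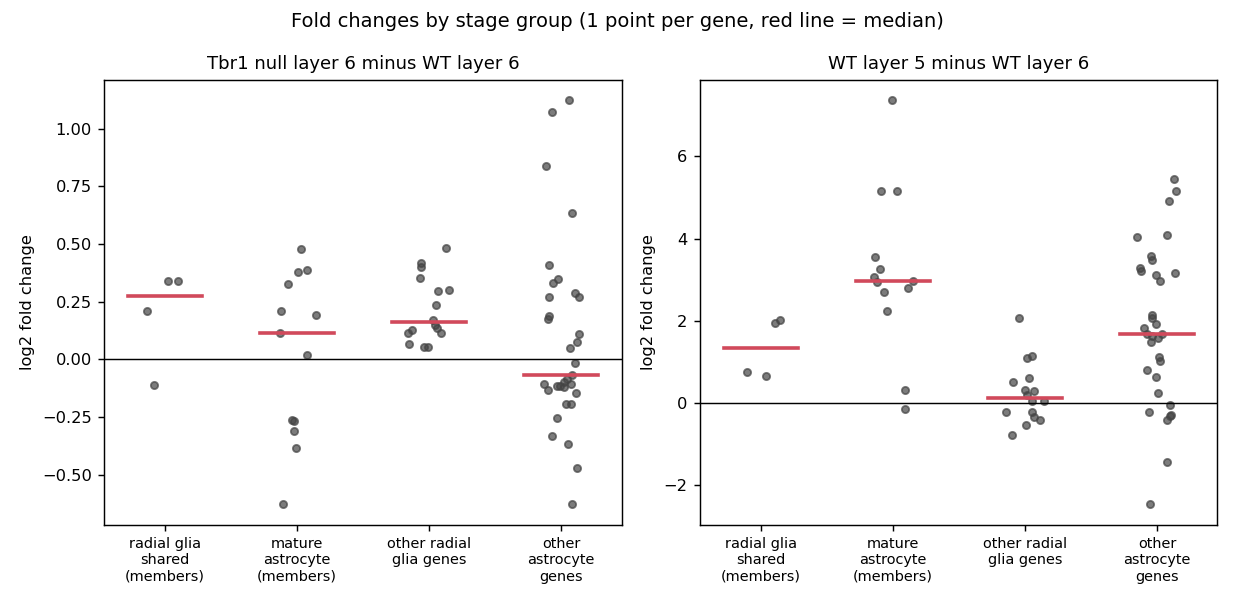
Log2 fold changes of the genes shared with radial glia, the mature astrocyte genes, and the other radial glia and astrocyte genes outside the 35, 1 point per gene, in null (left) and WT layer 5 (right) against WT layer 6, with the median as a red line. In layer 5 the mature genes have a median of 2.97 and the shared genes 1.34; in null layer 6 the medians are 0.11 and 0.27.

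**Figure D4:**
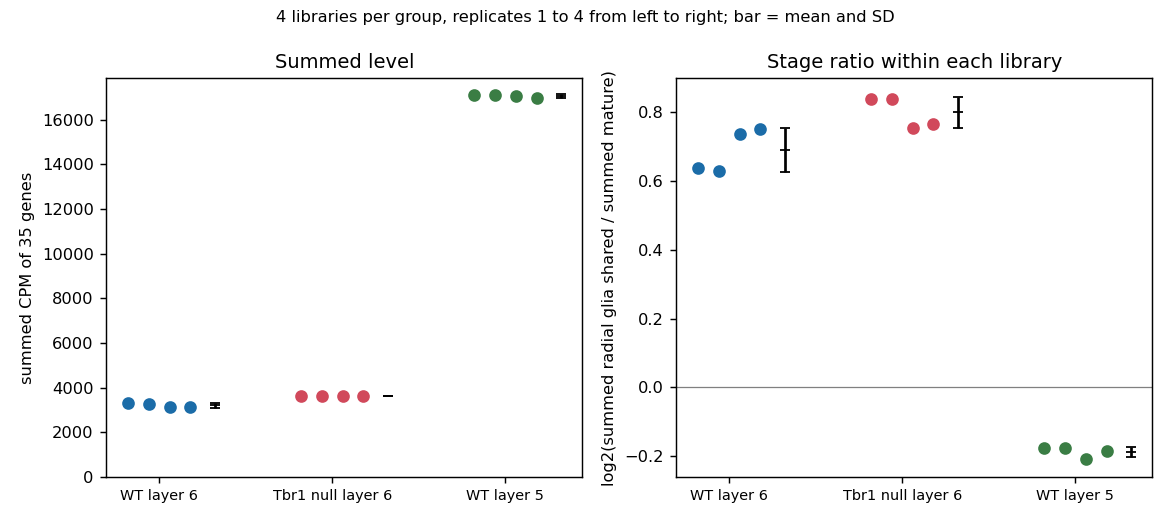
Summed CPM of the 35 genes (left) and the log2 ratio of summed shared to summed mature genes (right) in each library, in replicate order from left to right, with bars for the mean and SD of 4 libraries. WT layer 5 stands at 16955 to 17132 CPM with a negative ratio, and both layer 6 groups stand at 3108 to 3639 CPM with a positive one.

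Genes of the same lineage outside the 35 gave further values. Over all genes tested, 7.31% were called higher in null layer 6 and 6.86% lower, and 1.71% were called higher with pairs summed. Of 16 other radial glia genes, 8 rose in null layer 6 and the other 8 were not called, with a median log2 fold change of 0.16 and 2 called higher with pairs summed. Among them were the matrix protein Tnc (0.40 ± 0.0516), the receptor phosphatase Ptprz1 (0.48 ± 0.0634) and the neurogenic factor Pax6 (0.35 ± 0.0668). In layer 5, 8 of the 16 were higher and 6 lower, numbers near those that 42.2% and 43.4% of all genes give, with a median of 0.12. Their log2 fold changes ran from -0.78 for Pdpn to 2.06 for the endothelin receptor Ednrb. Of the genes named for null layer 6, Tnc and Pax6 were lower in layer 5 (-0.22 and -0.33) and Ptprz1 was higher (1.13). Of 33 other astrocyte genes, 26 were higher in layer 5 and 5 lower, with a median of 1.67, among them the Toll-like receptor partner Tril at 3.28. In null layer 6, 4 of the 33 rose, among them the thyroid hormone deiodinase Dio2 (0.63 ± 0.0310) and the peptide transporter Slc15a2 (0.84 ± 0.0717), and 6 fell, among them the gliogenic factor Nfia (-0.33 ± 0.0338), with a median of -0.07. The median of this second astrocyte list thus had the opposite sign to that of the 35 genes in null layer 6. Of its 33 genes 15 lay above 0 and 18 below, so that sign rests on a narrow split. Nfia, Nfib and Nfix belong to this list and fell in null layer 6, and none of them was called higher in layer 5 (log2 -0.29, -1.44 and -0.04). The median without them was not computed.

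Markers of the oligodendrocyte lineage, microglia and vessels were also mostly higher in layer 5, unlike those of dividing progenitors, neurons and interneurons. Of 13 oligodendrocyte lineage genes tested, 12 were higher in layer 5 and 1 lower, with a median of 2.20, and the summed level of the list was 316 to 335 CPM in WT layer 6 libraries, 298 to 310 in null libraries and 1238 to 1252 in layer 5 libraries. The myelin gene Cnp and the lineage factor Olig1 were higher by 3.82 and 2.41 on the log2 scale, while Mobp was at 0 to 0.144 CPM in every library. All 13 microglial genes were higher in layer 5, with a median of 1.58 and summed levels of 143 to 150.4, 141 to 151 and 422 to 432 CPM in the 3 groups, in the order WT layer 6, null layer 6 and WT layer 5. Of 12 vascular and blood genes tested, 11 were higher, with sums of 460 to 472, 420 to 437 and 906 to 926 CPM. The haemoglobin genes Hba-a1 and Hbb-b1 were at 0 to 0.060 CPM, and Hba-a2 was at 0 to 0.490 CPM. Of 14 dividing progenitor genes, 5 were higher in layer 5 and 6 lower, with sums of 585 to 606, 675 to 690 and 431 to 449 CPM. Of 14 pan-neuronal genes, 6 were higher in layer 5 and 7 lower. By these counts both lists lay near the shares of all genes, 42.2% higher and 43.4% lower. The dividing progenitor list had 0 genes more than 2-fold higher in layer 5 and 4 more than 2-fold lower, with log2 fold changes from -5.14 to 0.37. Of all 14927 genes tested, 2710 were more than 2-fold higher and 1417 more than 2-fold lower. Interneuron genes were higher for 4 of 15 and lower for 10, with sums of 1018 to 1129, 706 to 743 and 906 to 930 CPM. The part of these lists in the astrocyte values was not tested.

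In null layer 6 the median log2 fold changes of the oligodendrocyte, microglial and vascular lists were -0.23, -0.10 and -0.11. Of all 14588 genes tested there, 7.31% were called higher and 6.86% lower. Of 12 oligodendrocyte lineage genes tested, 2 rose and 6 fell, among them Mbp (0.40), Pdgfra (-0.31) and Gpr17 (-0.74). The microglial gene with the smallest adjusted p, C1qc, had a log2 fold change of -0.16 ± 0.0652 and was not called (edgeR, Benjamini-Hochberg adjusted p = 0.125), and 2 of 13 vascular genes (Cdh5 and Cldn5) fell. Of the 14 genes listed for dividing progenitors 5 rose and 9 were not called. Those that rose included the neurogenic factor Neurod1 (0.56 ± 0.0530), Mcm6 (0.55 ± 0.101) and, by less, Mki67 (0.18 ± 0.0432). Cdk1 (0.04) and Ccnb1 (0.08) were among those not called. Pan-neuronal genes rose in 4 of 14 cases and fell in 2. Interneuron genes fell in 6 of 14 cases and rose in 1 (7.14%, near the share of all genes), with Reln at -1.10 ± 0.0470. The part of these lists in the null values was not tested.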

How the data were processed

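RNA was measured in 12 libraries of sorted cells from mouse cortex at postnatal day 5, and the 6 ChIP samples of the series were not used here. The authors deposited whole-number counts per gene and, separately, whole-number normalized values for which no unit is given, treated here as a score. Trim Galore 0.4.2, STAR 2.5.2b and HTSeq are named in the submitters' processing notes, with the build mm9; the sources used here do not give the strand setting used in counting. Per the labels' protocols, libraries were stranded and made from total RNA after ribosomal depletion. Columns were matched to samples by name, and 0 columns were left unmatched.

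Counts of all 24015 genes were fitted with edgeR 4.0.16 in R 4.3.3 (TMM, filterByExpr by group, quasi-likelihood F-test, only the 2 groups compared), with Benjamini-Hochberg adjustment over all genes tested and a call at an adjusted p below 0.05. All 35 genes passed the filter in both comparisons. Standard errors come from the F statistic and intervals are at 95%. The deposited score was used for direction only: for 16 of 16 genes called in null layer 6 and 35 of 35 in layer 5 it gave the same direction. DESeq2 1.42.0, limma 3.58.1 with voom, and the other settings named in the closing section were alternatives. The library pairs follow from shared digits in the layer 6 library codes and, in layer 5, from counts that agreed more closely within a pair: chi-square per degree of freedom was 1.33 to 1.39 within layer 5 pairs and 2.94 to 3.35 between them, and 3.21 to 10.4 within and 10.6 to 59.4 between the layer 6 pairs.

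The 35 genes, the stage groups and the other lists were chosen with earlier results of these data known. All 35 genes were named. Values in every library were given for Tbr1, for the 5 highest and 5 lowest fold changes in each comparison and for the genes shared with radial glia; of every other list up to 3 genes with the smallest adjusted p were named. A gene that this rule gave is not reported here. Gfap and the null values of Sparcl1 by library, and genes at or near 0, were added after their values were seen. So were Nfib, Nfix, Pdpn, Tubb3, Map2, Cdk1 and Ccnb1. Promoter windows came from RefSeq (GRCm38.p6).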

Additional observations from a re-analysis of the deposited data

Results flagged for a closer look

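In 3 of 114 groups of 4 libraries, 1 library lay far from the other 3 on Dixon's criterion, where chance alone gives about 1 in 20, or 5.7 groups. Aldoc was at 839 CPM in WT layer 5 replicate 2 and at 819 to 821 in the other layer 5 libraries. Ntsr2 was at 8.63 CPM in the same library and at 7.66 to 7.82 in the others. S100b was at 1.002 CPM in WT layer 6 replicate 4 and at 0.671 to 0.727 in the other WT layer 6 libraries. Each gap is small beside the difference between layers for that gene, 2.58, 2.80 and 5.15 on the log2 scale.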

How the results depend on the processing

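The 34 higher calls in layer 5 were 34 under every alternative except a test against a 1.5-fold change (glmTreat), which gave 32. The 1 lower call, Gjb6, was 0 with DESeq2, limma voom, all 3 groups in 1 fit, pairs summed, the replicate block, batch B or batch C alone, glmTreat and a random block for pairs, and 0 to 1 when 1 library was left out; of these 9 settings limma voom alone gave 1 at an unadjusted p under 0.05. Counts in null layer 6 were 3 higher and 0 lower with pairs summed and 0 and 0 with glmTreat (also at an unadjusted p under 0.05); otherwise they were 12 to 16 higher and 2 to 3 lower, and 11 to 13 higher and 3 lower without 1 library. Without 1 library the median in null layer 6 was 0.12 to 0.21, its SD 0.30 to 0.32, the shared genes' median 0.25 to 0.28 and the mature genes' 0.033 (without null replicate 4) to 0.21 (without WT replicate 1). The same ranges in layer 5 were 2.66 to 2.78, 1.56 to 1.60, 1.33 to 1.36 and 2.91 to 3.10. Leaving out WT layer 6 replicates 1 and 2, an alternative chosen after seeing the data, gave an SD of 0.34 in null layer 6 and a mature median of 3.17 in layer 5, and turned Gfap to 0.16, Clu to 0.0048, Ndrg2 to 0.027 and Pla2g7 to 0.23. Mlc1 turned to -0.00448 without TMM, when the summed level in null layer 6 was 3597 CPM. Without 1 library, Mlc1 was at -0.022 (without null replicate 4) to 0.062, Ndrg2 at -0.049 to 0.0057 (above 0 without null replicate 1 or WT layer 6 replicate 1) and Clu at -0.056 to 0.055 (above 0 without null replicate 3 or 4 or WT layer 6 replicate 2). None of these 5 genes was called in either direction in null layer 6. The stage ratio from mean log2 levels was 2.90, 3.08 and 1.05. With Gja1 counted as shared, chosen after seeing the data, it was 1.248, 1.17 and -0.063 from sums, and the shared median 0.21 in null layer 6 and 0.74 in layer 5. The cause was not tested for any of these changes.

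The replicate block left 12 higher and 3 lower in null layer 6 (Sparcl1 lost its call) and 34 higher and 0 lower in layer 5. Same-numbered libraries had correlations of -0.14 to -0.094 in the former and -0.013 to 0.020 in the latter, so the numbers do not pair the libraries. Over all genes, 1067 were called higher and 1001 lower in null layer 6: 866 and 1238 without TMM, 249 and 230 with pairs summed, 76 and 71 with glmTreat, 688 and 589 with a random block for pairs and 831 and 675 without WT layer 6 replicates 1 and 2. In layer 5, 6293 and 6475 became 3569 and 2802 with glmTreat. Counts of 22 to 67 in layer 6 limit Gpr37l1 and S100b, and counts of 32 to 102 limit Slc25a18. Division by transcript length and TBR1 regions near the genes were not run.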
